A study of Homo sapiens with 15 samples.

Results

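Nutlin was compared with its vehicle, DMSO, in U2OS cells taken in S-phase, a comparison of 5 of the 15 libraries of the study. U2OS is a human osteosarcoma line with wild-type p53, and Nutlin is a small molecule that occupies the p53 pocket of MDM2, a ubiquitin ligase that sends p53 for degradation. The S-phase libraries were chosen by their labels: 2 from cells given 10 µM Nutlin and 3 from cells given DMSO alone. Per the labels' protocols, all of them had passed through a pair of 16 h blocks with 2 mM thymidine, 8 h apart, received Nutlin or DMSO for the last 4 h of the second block, and were harvested 4 h after the thymidine had been washed out, with the treatment kept on. The 10 other libraries were Nutlin and DMSO cells held in the block (2 and 2, called non-released) and Nutlin and DMSO cells in asynchronous growth (3 and 3), each state with DMSO libraries of its own. The title of the series puts p53 activity beside the processivity of replication forks, and cells harvested in S-phase are those in which forks were moving. Whether libraries of a group came from separate cultures is not in the labels, and the p-values therefore speak only of the spread between these libraries, which may be technical.

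As background, p53 is a transcription factor that binds DNA as a tetramer and raises the transcription of genes for cell cycle arrest, cell death, DNA repair, metabolism and its own control. CDKN1A, one of these targets, encodes the CDK inhibitor p21, which lowers the phosphorylation of RB and its relatives, and these then repress genes driven by E2F factors and genes of mitosis. Cells that already replicate DNA have passed the point in late G1 at which that brake acts on S-phase entry.

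The DMSO library with replicate number 2 stood apart and was shallow, so the main counts are given with it and without it. The Nutlin libraries held 12.05 and 10.25 M reads assigned to genes and the DMSO libraries 19.02, 6.05 and 15.93 M reads, the 6.05 M being those of replicate 2. Across tested genes the log2 values of that library had a Pearson correlation of 0.9812 and 0.9731 with the other DMSO libraries, which had 0.9958 with each other, a description across genes and not a test. Between it and them, 268 and 500 genes lay more than 1 log2 unit apart, against 1 gene between the other DMSO libraries. The genes in which it lay farthest above both of them were MTRNR2L1, RN45S, POLR2A, FAM65A, SRRM2 and ATN1. POLR2A, the largest subunit of RNA polymerase II, had 373 and 414 normalised reads under Nutlin, against 377, 2388 and 388 under DMSO. LYPLA1 and MZT1 were among the 6 genes farthest below. The ribosomal precursor RN45S took 0.10 and 2.54% of reads under Nutlin and 0.29, 2.82 and 0.41% under DMSO, so replicate 2 was the high library in both groups.

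The libraries matched their S-phase label in the genes of histone supply. The median over 43 tested replication-dependent histone genes was 12.53 and 12.28 on the deposited log2 scale under Nutlin and 12.39, 12.07 and 12.45 under DMSO in S-phase cells, while DMSO libraries of non-released cells had 10.11 and 9.90. Summed markers of bone and mesenchyme came to 72707 and 76563 normalised reads under Nutlin and 72989, 86247 and 63087 under DMSO. VIM, SPARC and FN1 were the largest members in every library. Of these 18 markers 4 were under 10 normalised reads in all 5 libraries: COL1A2, SP7, BGLAP and TWIST1, the last at 0. COL1A1 had 9479 in DMSO replicate 2, against 2476 and 1668 in the other DMSO libraries. Markers of epithelium summed to 16894 and 15790 under Nutlin and 13981, 12595 and 15312 under DMSO. The keratins KRT8 and KRT18 made up 97.3 and 96.3% of the epithelial sum under Nutlin and 96.6, 96.2 and 96.2% under DMSO, and 11 of the 22 epithelial markers were under 10 normalised reads in all 5 libraries, with OVOL1 at 0. Of 12 blood markers, 8 were under 10 normalised reads in all 5 libraries, with CD3E and HBB among those at 0 in all of them, and ITGAM, an integrin chain of myeloid cells, was the only one called. It had 39.1 and 41.6 normalised reads under Nutlin and 14.2, 10.1 and 12.3 under DMSO (difference 0.71 ± 0.13 (SE), limma adjusted p = 0.00702), and it lost its call without Nutlin replicate 2 (adjusted p = 0.069).

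Nutlin raised many genes in S-phase cells and lowered few. Of 14257 genes tested, 466 (3.27%) passed an adjusted p of 0.05, and 411 of them (2.88%) were higher and 55 (0.386%) lower under Nutlin. A difference is the mean of the Nutlin libraries minus the mean of the DMSO libraries on the deposited log2 scale, which compresses differences at low read numbers. Tests were limma's, two-sided, with p-values adjusted over all genes tested by Benjamini-Hochberg. The median difference was 0.69 over the higher genes, -0.52 over the lower genes and -0.01 over all genes tested. Among the higher genes 92 differed by 1 or more, and among the lower genes 1 did. In all 466 genes the Nutlin libraries did not overlap with the DMSO libraries, as in 25.8% of all genes tested, where the Nutlin libraries lay above in 1962 genes and below in 1713.

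Without DMSO replicate 2 there were 564 calls (3.97%), 482 higher (3.40%) and 82 lower (0.578%). Both fits called 380 genes higher and 36 lower. Only with that library in the fit were 31 of the 411 higher calls and 19 of the 55 lower calls made. In 40 of the 55 lower genes it was the highest DMSO library, a much larger share than the 40.7% of all genes tested. In 221 of the 411 higher genes it was the lowest, also a larger share than the 45.7% of all genes tested. Leaving out other libraries also moved these counts: without Nutlin replicate 1 there were 276 higher and 7 lower genes, without Nutlin replicate 2 there were 185 and 29, without DMSO replicate 1 there were 331 and 31, and without DMSO replicate 3 there were 358 and 85. With the replicate number as a block the lower genes came to 133.

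**Figure D1:**
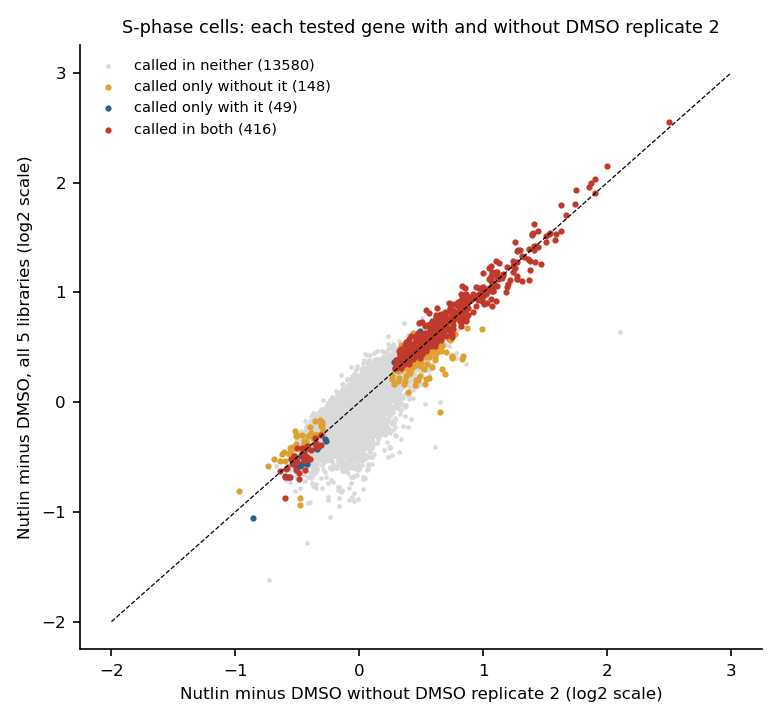
Difference between Nutlin and DMSO in S-phase cells for each of 14193 genes, with all 5 libraries (vertical axis) and without DMSO replicate 2 (horizontal axis), both in log2 units, coloured by the fits that called the gene, with the line of equality dashed. The 416 genes called in both fits lie along the line, and 148 genes were called only without the library.

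The upstream ends of the most strongly called arrest and death genes are shown first, because p53 acts through DNA sites and these genes moved together. The consensus p53 site is a pair of 10-base half-sites, each with a C and a G as its invariant core letters. The windows below are RefSeq promoters (GRCh38.p14), 250 bases before to 50 bases after the annotated start, printed 5′ to 3′ on the strand of the gene, for the 3 called arrest or death targets with the smallest p that have an entry. MDM2 lies on chr12:68807922-68808221, BTG2 on chr1:203305269-203305568 and CDKN1A on chr6:36678464-36678763, all on the plus strand. A search on both strands for adjoining half-sites with intact core letters and at most 3 other mismatches found no match in these 3 windows, which says only that such letters are not in them. As background, the classical p53 sites of CDKN1A lie farther upstream than this window and those of MDM2 in its first intron.
MDM2: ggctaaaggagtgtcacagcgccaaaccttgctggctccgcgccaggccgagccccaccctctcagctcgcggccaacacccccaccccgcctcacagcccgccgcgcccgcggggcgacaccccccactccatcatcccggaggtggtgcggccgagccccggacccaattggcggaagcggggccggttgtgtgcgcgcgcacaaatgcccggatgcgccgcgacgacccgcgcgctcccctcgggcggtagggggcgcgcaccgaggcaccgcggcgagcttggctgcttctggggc
BTG2: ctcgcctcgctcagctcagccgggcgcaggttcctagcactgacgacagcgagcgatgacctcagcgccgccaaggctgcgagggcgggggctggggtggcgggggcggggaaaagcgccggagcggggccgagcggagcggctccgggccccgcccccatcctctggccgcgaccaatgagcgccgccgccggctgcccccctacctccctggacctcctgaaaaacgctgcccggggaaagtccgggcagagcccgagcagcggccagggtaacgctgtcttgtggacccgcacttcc
CDKN1A: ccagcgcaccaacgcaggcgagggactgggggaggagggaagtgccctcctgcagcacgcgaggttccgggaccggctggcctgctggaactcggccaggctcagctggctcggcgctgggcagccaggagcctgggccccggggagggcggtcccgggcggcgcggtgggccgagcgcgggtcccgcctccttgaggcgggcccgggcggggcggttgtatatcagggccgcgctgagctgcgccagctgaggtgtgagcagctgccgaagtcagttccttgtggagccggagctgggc

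Among all genes called higher, 18 of the 302 with a promoter entry held such a match (5.96%), against none of 31 genes called lower, 100 of 9739 genes tested (1.03%) and 288 of 27305 promoters in the table (1.05%). These shares are a description of windows of the same length, without a test. The matches of the p53 targets among them are shown with those of PTCHD4, whose site has no mismatch. The set was chosen after the matches had been seen, and capitals mark the 4 core bases of each half-site.
GLS2: aggCTTGctggggCATGcgc
GDF15: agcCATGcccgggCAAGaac
FDXR: gggCAGGagcgggCTTGccc
TGFA: gggCAGGccctgcCTAGtct
RPS27L: ggcCTAGagcagaCAAGccc
PMAIP1: gagCGTGtccgggCAGGtcg
AEN: gggCTTGcccgggCATGtgg
GPX1: gggCCAGaccagaCATGcct
TRIM32: cgaCAAGccccagCATGctg
PTCHD4: aggCTTGcccagaCTTGccc
On GRCh38.p14, the sites are at chr12:56488113-56488132 (GLS2, minus strand), chr19:18386186-18386205 (GDF15, plus), chr17:74872996-74873015 (FDXR, minus), chr2:70553863-70553882 (TGFA, minus), chr15:63157527-63157546 (RPS27L, minus), chr18:59899811-59899830 (PMAIP1, plus), chr15:88621306-88621325 (AEN, plus), chr3:49358521-49358540 (GPX1, minus), chr9:116687227-116687246 (TRIM32, plus) and chr6:48111198-48111217 (PTCHD4, minus). Counted from the annotated start, which is base 1, the first base of the site is 30 in GLS2, 29 in GDF15, -21 in FDXR, -34 in AEN and -20 in PTCHD4. A match is not evidence that p53 binds there.

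Genes of arrest and of the feedback on p53 rose together. Of 22 tested members of that list 18 were called higher and none lower, with a median difference of 0.88, against 2.88% of all genes called higher and a median of -0.01, and without DMSO replicate 2 the counts were the same and the median 0.79. CDKN1A had 14234 and 17599 normalised reads under Nutlin, against 4195, 3278 and 4390 under DMSO, a ratio of means of 4.03 (difference 2.00 ± 0.12, limma adjusted p = 1.33e-06). MDM2 had 23785 and 25616 normalised reads under Nutlin, against 6903, 5431 and 6743 under DMSO, a ratio of 3.88 (difference 1.96 ± 0.10, adjusted p = 9.21e-07). In both genes every Nutlin library lay far above every DMSO library. Both lost their call when the library labelled DMSO asynchronous replicate 3, which stood apart from its group, was put into the fit and into the shared spread, with an adjusted p of 0.0927 for CDKN1A and 0.0526 for MDM2. The same fit ended the call of TP53INP1 (adjusted p = 0.465), GLS2 (0.189), GDF15 (0.451), SERPINB5 (0.214) and SULF2 (0.506), with differences unchanged by construction.

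BTG2, an antiproliferative factor that recruits the CCR4-NOT deadenylase, had 3235 and 3426 normalised reads under Nutlin, against 858, 569 and 727 under DMSO (difference 2.15 ± 0.12, limma adjusted p = 1.22e-06). PPM1D, the WIP1 phosphatase that switches off p53 and the damage kinases, had 6348 and 6095 normalised reads under Nutlin, against 2521, 2049 and 2463 under DMSO (difference 1.39 ± 0.09, adjusted p = 1.62e-06). TP53INP1, a stress protein of the p53 pathway, had 1622 and 1786 normalised reads under Nutlin, against 577, 614 and 484 under DMSO (difference 1.53 ± 0.10, adjusted p = 1.62e-06). The DMSO libraries of these 3 genes overlapped with no Nutlin library, and DMSO replicate 2 was the lowest of its group in BTG2 and PPM1D and the highest in TP53INP1. The sestrins, stress proteins that restrain mTORC1, were split. SESN1 had 1696 and 1647 normalised reads under Nutlin, against 629, 437 and 584 under DMSO (difference 1.53 ± 0.12), and SESN2 had 1932 and 2294 under Nutlin, against 960, 922 and 908 under DMSO (difference 1.13 ± 0.10), while SESN3 differed by 0.10 with an adjusted p of 0.75.

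The other called members of the arrest list were TRIAP1 (difference 1.29), TRIM22 (1.05), GADD45A (0.96), ZMAT3 (0.92), RPS27L (0.84), CCNG1 (0.81), PLK2 (0.78), PHLDA3 (0.75), PLK3 and SFN (0.67 each) and E2F7 (0.51). E2F7 encodes a repressor of E2F target genes, and GADD45A, ZMAT3 and PLK2 are stress-response genes. PRDM1 differed by 0.58, MXD4 by 0.21, RFWD2 by 0.10 and RCHY1 by 0.03 without passing the test. RFWD2 and RCHY1 encode further ubiquitin ligases of p53, COP1 and PIRH2. RPRM and KLF4 were too low to be tested.

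**Figure D2:**
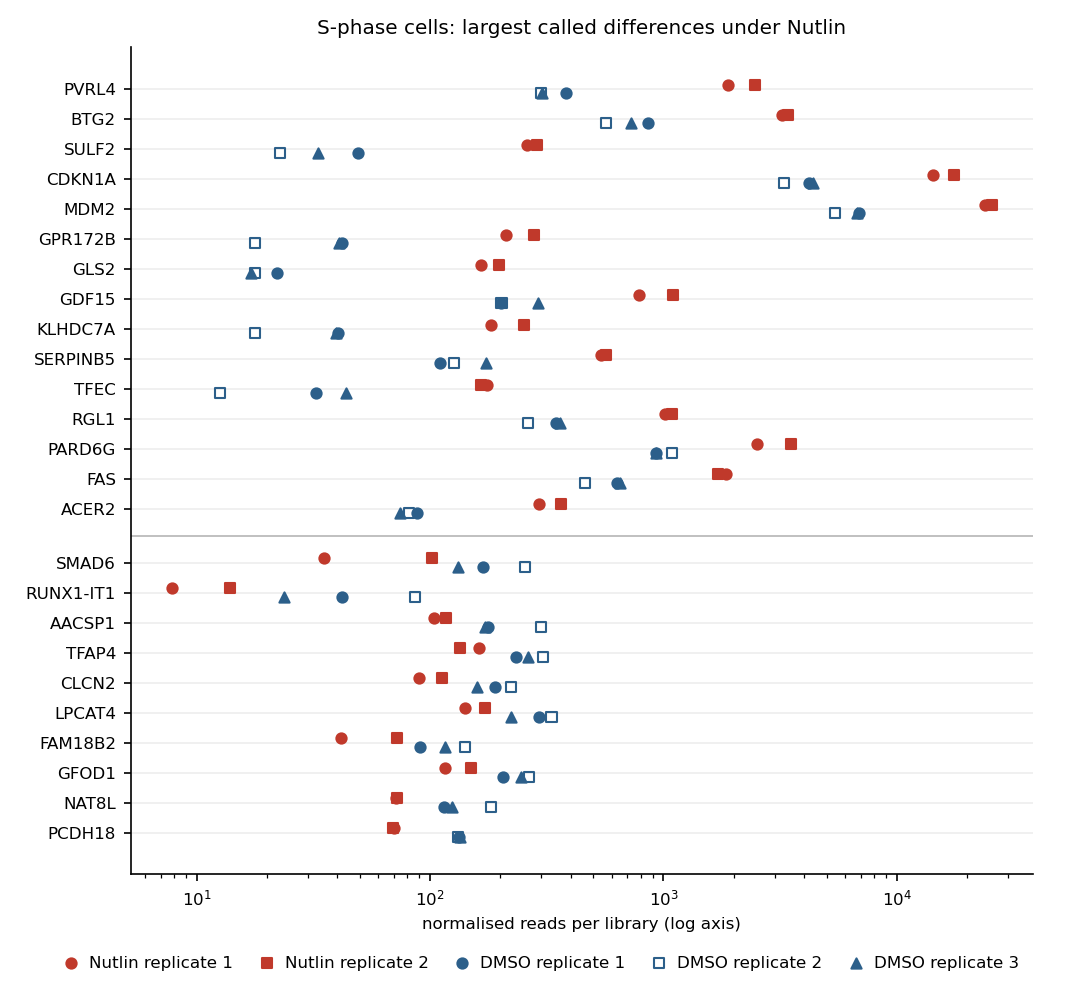
Normalised reads (log axis) in each S-phase library for the 15 genes with the largest positive and, below the line, the 10 with the largest negative difference among those called. Nutlin libraries are red and DMSO libraries blue, with DMSO replicate 2 as an open square, and in each gene the colours do not overlap.

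Genes of cell death rose as well, on both the receptor and the mitochondrial route. Of 18 tested members 13 were called higher and none lower (median difference 0.72), and without DMSO replicate 2 again 13 were called (median 0.71). FAS, the death receptor for FAS ligand, had 1845 and 1717 normalised reads under Nutlin, against 631, 462 and 654 under DMSO (difference 1.54 ± 0.12, limma adjusted p = 5.2e-06). BBC3, which encodes the BH3-only protein PUMA, had 700 and 1084 normalised reads under Nutlin, against 300, 311 and 289 under DMSO (difference 1.39 ± 0.16, adjusted p = 0.00013). TP53I3, an oxidoreductase, had 3586 and 4516 normalised reads under Nutlin, against 1735, 1529 and 2011 under DMSO (difference 1.18 ± 0.12). In all 3 genes the Nutlin libraries were the 2 highest of the 5.

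The death receptor TNFRSF10B had 4107 and 5150 normalised reads under Nutlin, against 2591, 2512 and 2667 under DMSO (difference 0.82 ± 0.10, limma adjusted p = 0.000396). APAF1, the scaffold of the apoptosome, had 1124 and 1266 under Nutlin, against 642, 584 and 619 under DMSO (0.90 ± 0.09, adjusted p = 4.25e-05), and EDA2R, a receptor of the TNF receptor family, had 1468 and 1744 under Nutlin, against 928, 804 and 815 under DMSO (0.88 ± 0.10, adjusted p = 0.000121). PIDD (1.12), IKBIP (1.04), BAX (0.73), PMAIP1 (0.72), CASP10 (0.70), TRAF4 (0.51) and AEN (0.48) were also called. BAX forms the pore of the outer mitochondrial membrane, and PMAIP1 encodes the BH3-only protein NOXA. PERP (0.40), CASP1 (0.30), SIVA1 (0.17), TNFRSF10C (0.03) and AIFM2 (-0.03) did not pass, and TNFRSF10A, TNFRSF10D and TP53AIP1 were too low to be tested.

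The p53 targets nearest to DNA synthesis itself were higher in these replicating cells, but not the whole repair list. Of 10 members 5 were called higher and none lower (median difference 0.52), and without DMSO replicate 2 there were 6 (median 0.55), REV3L joining. RRM2B, the p53-inducible small subunit of ribonucleotide reductase, had 12803 and 11008 normalised reads under Nutlin, against 4832, 3217 and 5018 under DMSO, a ratio of 2.73 (difference 1.46 ± 0.15, limma adjusted p = 8.62e-05). PCNA, the sliding clamp of the replicative polymerases, had 8560 and 8222 under Nutlin, against 4956, 4013 and 5206 under DMSO (0.83 ± 0.10, adjusted p = 0.000254). POLH, the translesion polymerase that copies past pyrimidine dimers, had 2564 and 3085 under Nutlin, against 1505, 1291 and 1480 under DMSO (0.96 ± 0.13, adjusted p = 0.000509). The Nutlin libraries lay above all DMSO libraries in each of the 3, and PCNA alone of them lost its call when S-phase libraries were fitted by themselves (adjusted p = 0.0634).

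DDB2 and XPC, which recognise damage for nucleotide excision repair, completed the called members. DDB2 had 2941 and 2938 normalised reads under Nutlin, against 1628, 1367 and 1643 under DMSO (difference 0.91 ± 0.08), and XPC had 3289 and 3390 under Nutlin, against 1935, 1764 and 1983 under DMSO (0.80 ± 0.10). REV3L (0.24), POLK (0.09), FANCC (-0.02) and ERCC5 (-0.09) were among the members that did not pass with all libraries. The usual subunits of ribonucleotide reductase showed no call: RRM1 differed by 0.30 (adjusted p = 0.17), and RRM2, the S-phase small subunit, by -0.00 ± 0.12 (adjusted p = 0.989), with 10768 and 10026 normalised reads under Nutlin and 10955, 11127 and 9281 under DMSO.

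In metabolism and autophagy 13 of 23 members were called higher and none lower (median difference 0.61), and without DMSO replicate 2 again 13 (median 0.53). GLS2, the p53-responsive mitochondrial glutaminase, had 165 and 197 normalised reads under Nutlin, against 22.1, 17.7 and 17.0 under DMSO, a ratio of 9.58 (difference 1.91 ± 0.12, limma adjusted p = 1.62e-06). GDF15, a secreted stress cytokine, had 783 and 1099 under Nutlin, against 200, 202 and 291 under DMSO (1.81 ± 0.17, adjusted p = 2.88e-05). FDXR, which passes electrons to mitochondrial P450 enzymes, had 3485 and 4154 under Nutlin, against 1440, 1408 and 1739 under DMSO (1.29 ± 0.10, adjusted p = 1e-05). These 3 had sites in the printed set, and none of them overlapped between the groups.

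C12orf5, the older symbol of the fructose bisphosphatase TIGAR, had 3661 and 3432 normalised reads under Nutlin, against 1636, 1509 and 1577 under DMSO (difference 1.14 ± 0.08, limma adjusted p = 2.56e-06). DRAM1, a lysosomal protein of autophagy, had 878 and 953 under Nutlin, against 444, 442 and 402 under DMSO (1.01 ± 0.11), and PRKAB1, a subunit of AMP-activated kinase, had 800 and 925 under Nutlin, against 475, 404 and 435 under DMSO (0.90 ± 0.09). FUCA1 (1.22), KIAA0247 (1.11), ISCU (0.80), PANK1 (0.66), DDIT4 (0.63), PRKAB2 (0.61) and GPX1 (0.40) were called too. DDIT4 is an inhibitor of mTORC1 and ISCU a scaffold for iron-sulfur clusters. ULK1, the kinase that starts autophagy, differed by -0.29 (adjusted p = 0.58), and LPIN1 (-0.21), SCO2 (-0.11), TSC2 (-0.05) and SAT1 (0.56) were among the 10 members that did not pass.

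Targets at the cell surface and in signalling held the largest difference of the comparison. Of 32 tested members 21 were called higher and none lower (median difference 0.76), and without DMSO replicate 2 there were 24 (median 0.79). PVRL4, the older symbol of the adhesion protein nectin-4, had 1895 and 2473 normalised reads under Nutlin, against 383, 298 and 301 under DMSO, a ratio of 6.67 (difference 2.55 ± 0.16, limma adjusted p = 1.54e-06). SERPINB5, the serpin called maspin, had 539 and 570 under Nutlin, against 110, 126 and 174 under DMSO (1.71 ± 0.16, adjusted p = 2.77e-05). EFNB1, a transmembrane ephrin, had 2136 and 3007 under Nutlin, against 849, 839 and 835 under DMSO (1.53 ± 0.12, adjusted p = 7.26e-06). DMSO libraries of EFNB1 lay close together, while its Nutlin libraries were spread more widely.

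FBXW7, the substrate receptor of an SCF ubiquitin ligase that degrades cyclin E and MYC, had 2970 and 2865 normalised reads under Nutlin, against 1377, 1140 and 1355 under DMSO (difference 1.15 ± 0.09, limma adjusted p = 5.2e-06). NINJ1, which ruptures the plasma membrane in lytic death, had 1471 and 1760 under Nutlin, against 626, 700 and 756 under DMSO (1.16 ± 0.09), and PADI4, an enzyme that turns arginine into citrulline in proteins, had 63.8 and 66.2 under Nutlin, against 8.7, 12.6 and 8.5 under DMSO (1.19 ± 0.11). GRHL3 (1.48), ABCA12 (1.32), CSF1 (1.26), TGFA (1.14) and KITLG (1.13) were called as well, and the last 3 encode secreted or shed growth factors. NOTCH1 (0.45), EPHA2 (0.41) and LIF (0.07) were among the 11 that did not pass.

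Across the 5 lists of p53 targets, counting each gene once, 70 of 105 tested genes (66.7%) were called higher and none lower, with a median difference of 0.75. Without DMSO replicate 2 the higher genes were 74. The members were chosen as textbook targets with earlier results of these data known, so the share is a description. With the library labelled DMSO asynchronous replicate 3 in the fit, the calls came to 14 in the arrest list, 11 in the death list, 5 in the repair list, 8 in the metabolism list and 12 in the surface list.

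Among the 15 largest differences 7 genes were outside these lists. SULF2, an extracellular sulfatase that edits heparan sulfate, had 259 and 286 normalised reads under Nutlin, against 48.9, 22.7 and 33.1 under DMSO (difference 2.03 ± 0.13, limma adjusted p = 1.62e-06). GPR172B, the older symbol of the riboflavin transporter SLC52A1, had 211 and 279 under Nutlin, against 41.8, 17.7 and 40.6 under DMSO (1.93 ± 0.17, adjusted p = 2.07e-05), and KLHDC7A had 182 and 253 under Nutlin, against 40.2, 17.7 and 39.7 under DMSO (1.80 ± 0.18, adjusted p = 4.2e-05). All 3 had their lowest DMSO value in replicate 2 and were called without it, with differences of 1.90 for SULF2, 1.75 for GPR172B and 1.63 for KLHDC7A. TFEC, a transcription factor of the MITF family, had 176 and 165 normalised reads under Nutlin, against 32.3, 12.6 and 43.4 under DMSO (1.62 ± 0.18).

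RGL1, an exchange factor for Ral GTPases, had 1011 and 1089 normalised reads under Nutlin, against 345, 263 and 362 under DMSO (difference 1.56 ± 0.11, limma adjusted p = 4.08e-06). PARD6G, a cell polarity scaffold, had 2525 and 3526 under Nutlin, against 928, 1087 and 930 under DMSO (1.56 ± 0.15, adjusted p = 3.59e-05). ACER2, a Golgi ceramidase, had 292 and 363 under Nutlin, against 87.6, 80.9 and 74.6 under DMSO (1.54 ± 0.13, adjusted p = 1.44e-05). In RGL1 and ACER2 the libraries of each group lay near each other.

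The genes that make up S-phase itself held few calls, as did the tested genes at large, of which 2.88% were called higher and 0.386% lower. None of 32 tested E2F-driven genes of G1/S was called in either direction (median difference -0.06), and in the list of origins and replisome 1 of 59 was called, PCNA (median 0.01). Of 57 genes of fork protection and the replication checkpoint 1 was called higher, RAD51C, a recombinase paralogue, with 3037 and 2719 normalised reads under Nutlin, against 1682, 1165 and 1760 under DMSO (difference 0.90 ± 0.14, limma adjusted p = 0.00183, and 0.128 when S-phase libraries were fitted by themselves). Of 39 genes of nucleotide synthesis and 43 tested replication-dependent histones none was called (medians 0.07 and 0.12). Without DMSO replicate 2 the medians were -0.09 for G1/S, -0.06 for the replisome, -0.02 for fork protection, -0.03 for nucleotide synthesis and 0.02 for histones. Leaving out DMSO replicate 2 added TYMS (0.39, adjusted p = 0.0404) among higher genes and POLE2 (adjusted p = 0.043) among lower genes. TYMS, thymidylate synthase, was high in that library, with 5097 and 4696 normalised reads under Nutlin and 3716, 6932 and 3743 under DMSO.

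CCNE1, which encodes cyclin E1, had 2097 and 2416 normalised reads under Nutlin, against 2471, 2305 and 2536 under DMSO, and CDC25A, the phosphatase that activates CDK2, had 1598 and 1566 under Nutlin, against 1702, 1504 and 1783 under DMSO. The groups overlapped in both, with differences of -0.11 ± 0.08 for CCNE1 and -0.07 ± 0.09 for CDC25A. CCNE2, for cyclin E2, had 831 and 739 under Nutlin, against 645, 513 and 690 under DMSO, all Nutlin values above all DMSO values, yet it did not pass (0.33 ± 0.12, limma adjusted p = 0.206). E2F2 was the lowest of the list, with 151 and 196 normalised reads under Nutlin, against 283, 324 and 273 under DMSO (-0.62 ± 0.16, adjusted p = 0.0592), and it passed with the replicate number as a block (adjusted p = 0.0119). E2F1 differed by -0.16 ± 0.11.

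Of the helicase subunits, MCM3 had 4156 and 3912 normalised reads under Nutlin, against 4732, 4167 and 4909 under DMSO (difference -0.19 ± 0.11, limma adjusted p = 0.44), and MCM6 had 1783 and 1330 under Nutlin, against 1584, 1739 and 1547 under DMSO (-0.07 ± 0.11, adjusted p = 0.769). CLSPN, the checkpoint adaptor claspin, differed by -0.15 ± 0.10 and WEE1, the kinase that restrains CDK1, by 0.00 ± 0.09. All of these fell short of the threshold, which does not show that they were equal. The standard errors of about 0.1 set the resolution of the comparison for such genes.

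Genes of G2 and mitosis had a median difference of -0.06 over 60 tested members, none called in either direction. Without DMSO replicate 2 the median was -0.13 and 2 were called lower, PSRC1 (adjusted p = 0.035) and CDCA8 (adjusted p = 0.011). PLK1, the polo-like kinase of mitosis, had 469 and 540 normalised reads under Nutlin, against 718, 857 and 598 under DMSO (difference -0.47 ± 0.12, limma adjusted p = 0.0654), and passed with the replicate block (adjusted p = 0.043), with library weights (0.0468) and without DMSO replicate 3 (0.0105). CDC20, an activator of the anaphase-promoting complex, had 2103 and 1955 under Nutlin, against 2527, 2259 and 2882 under DMSO (-0.32 ± 0.12, adjusted p = 0.206). CCNB1, for cyclin B1, differed by -0.03 ± 0.14 and its groups overlapped. Before adjustment limma gave a p under 0.05 in 4 of the 32 G1/S genes, 5 of the 39 nucleotide genes, 1 of the 43 histones and 8 of the 60 mitotic genes, against 2228 of all 14257 genes tested, and voom on recovered reads called no gene of these 4 lists.

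**Figure D3:**
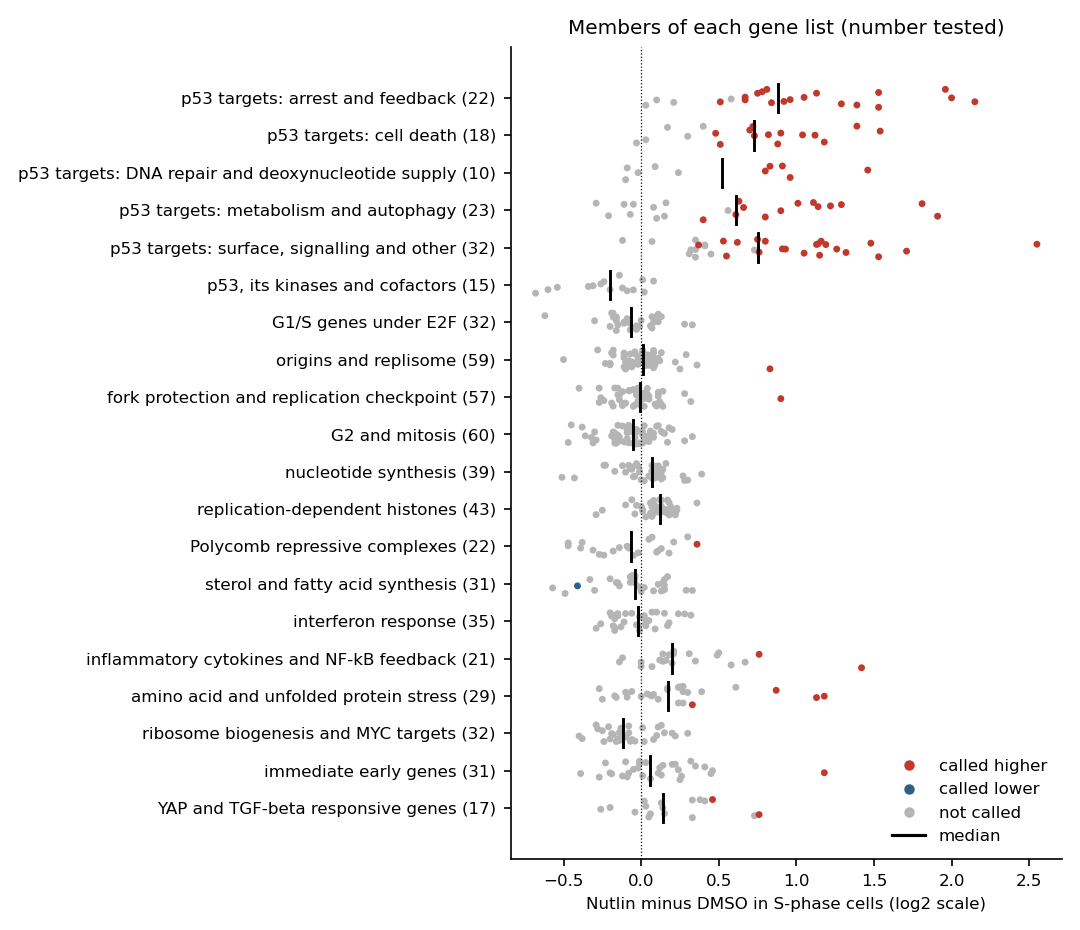
Difference between Nutlin and DMSO in S-phase cells (log2 units, horizontal axis) for each tested member of 20 gene lists, red where called higher, blue where called lower and grey where not called, with a bar at the median of the list. The 5 lists of p53 targets have medians from 0.52 to 0.88, while the lists of replication and mitosis lie near 0.

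The same genes had been measured under Nutlin in asynchronous cells, with DMSO libraries of their own. There, without the library labelled DMSO asynchronous replicate 3, 318 genes (2.23%) were called higher and 119 (0.835%) lower. The G1/S list had a median difference of -0.06 in S-phase cells with none of 32 genes called, against -0.53 in asynchronous cells with 20 called lower. In asynchronous cells CCNE1 differed by -0.51 (limma adjusted p = 0.00333), CDC25A by -0.62 (adjusted p = 0.00154), E2F1 by -0.56 (adjusted p = 0.0136) and MCM3 by -0.64 (adjusted p = 0.00515), each farther from 0 than in S-phase cells. The histone genes had a median of 0.12 in S-phase cells (0.02 without DMSO replicate 2), against -0.53 in asynchronous cells with 9 called lower. Their medians by asynchronous library were 11.56 and 10.83 in DMSO replicates 1 and 2, 10.35 in the left-out replicate 3, and 10.85, 10.43 and 10.35 under Nutlin. The size of that difference therefore leans on DMSO replicate 1. The replisome list had 0.01 in S-phase cells, against -0.26 in asynchronous cells with 14 called lower. Fork protection genes had -0.01 against -0.14, with 5 called lower and 1 higher, and nucleotide synthesis genes 0.07 against -0.11, with 1 called lower. Non-released cells had medians of -0.16 for G1/S, -0.08 for the replisome and -0.07 for histones, with none of these genes called there. Medians nearer 0 than in asynchronous cells were thus not particular to S-phase cells.

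The difference of the responses, S-phase minus asynchronous, was tested for each gene, and no gene passed (lowest adjusted p = 0.261 with limma, also 0 genes with voom). Without adjustment 1174 genes (8.23%) had a p under 0.05. Among 218 replication genes outside the p53 lists, 86 (39.4%) had one, and in 189 of them (86.7%) the S-phase response was the less negative or more positive, with a median difference of responses of 0.26, against 0.02 over all genes tested. Without DMSO replicate 2 there were 83 and 186 of the 218 genes, with a median of 0.22. These are counts of genes that share libraries and are given without a test. CCNE2 had an unadjusted p of 8.3e-05, with 0.33 in S-phase cells and -0.65 in asynchronous cells. Among p53 targets the difference of responses had a median of -0.05. GLS2 had the smallest unadjusted p of all genes (1.98e-05), with a difference of 1.91 in S-phase cells and 0.78 in asynchronous cells.

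**Figure D4:**
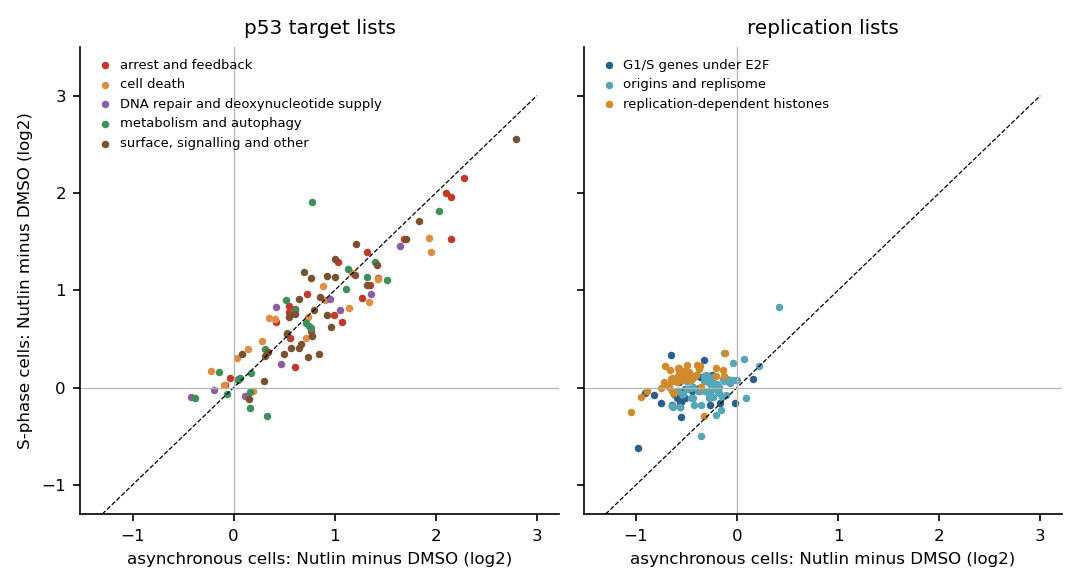
Difference between Nutlin and DMSO (log2 units) in S-phase cells (vertical axis) against asynchronous cells (horizontal axis) for p53 targets (left) and replication genes (right), 1 point per tested gene, with the line of equality dashed. The right panel holds the G1/S, replisome and histone lists, and genes of fork protection and nucleotide synthesis are not plotted. The p53 targets lie along the line, and most of the plotted replication genes lie left of 0 on the horizontal axis and near 0 on the vertical axis.

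In non-released cells, which were held in the block, 257 genes (1.80%) were called higher and 17 (0.119%) lower under Nutlin. Unlike S-phase cells, they had no washing out of thymidine and no 4 h after it. The length of Nutlin exposure of non-released and asynchronous cells was not established here, so it may also differ between states. Of the 411 genes higher in S-phase cells, 407 had a positive difference in non-released cells and 402 in asynchronous cells. The 211 called higher in both S-phase and non-released cells were 51.3% of the S-phase genes and 82.1% of the non-released genes, and the 237 shared with asynchronous cells were 57.7% of the S-phase genes and 74.5% of the asynchronous genes. All 3 states shared 181. A further 144 passed in S-phase cells and in neither other state, which does not show that their responses differed. Without DMSO replicate 2, which also enters the spread of the other states, 399 genes were called higher in non-released cells (2.81%) and 536 in asynchronous cells (3.78%), 291 and 339 of them shared with the 482 of S-phase cells, 260 in all 3 states, and 112 passed in S-phase cells alone. No gene passed the test of the difference between S-phase and non-released responses (lowest adjusted p = 0.767, and 0.237 without DMSO replicate 2), and 442 (3.10%) had an unadjusted p under 0.05. BTG2 (2.15 in S-phase, 1.24 in non-released cells) and PPM1D (1.39 and 0.73) were among these, with unadjusted limma p of 0.000245 and 0.000269. The share of 3.10% is smaller than a threshold of 0.05 passes where no response differs, so neither gene is shown to differ.

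Of 31 tested immediate early genes, 1 was called higher in S-phase cells, where 2.88% of all genes were, and 7 in non-released cells, where 1.80% of all genes were. The median difference was 0.06 in S-phase cells (0.18 without DMSO replicate 2), against 0.40 in non-released cells. FOS, the AP-1 subunit, had 173 and 154 normalised reads under Nutlin, against 126, 124 and 145 under DMSO in S-phase cells (difference 0.24 ± 0.16, limma adjusted p = 0.492), while in non-released cells it differed by 1.27 (adjusted p = 0.00154). The difference between these responses had an unadjusted p of 0.000806 and did not pass adjustment. EGR1 had 99.0 and 103 normalised reads under Nutlin, against 48.1, 190 and 28.3 under DMSO, so that DMSO replicate 2 lay above both Nutlin libraries and the other DMSO libraries below them. The call in S-phase cells was ATF3, a stress factor that is also a p53 target, with 479 and 468 under Nutlin, against 205, 129 and 218 under DMSO (1.18 ± 0.16, adjusted p = 0.000494). ATF3 lost its call in 1 of 14 alternative fits.

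The lists of other programmes are set against 2.88% of all genes called higher and 0.386% called lower. In amino acid and unfolded protein stress 4 of 29 genes were higher, with DMSO replicate 2 or without it, SESN2 and ATF3, which are p53 targets, NUPR1 (difference 0.87 ± 0.15) and SEL1L (0.33 ± 0.08). NUPR1 lost its call without Nutlin replicate 2 (adjusted p = 0.0695) and with S-phase libraries alone (0.153), and SEL1L lost it in 9 of 14 alternative fits, with an adjusted p of up to 0.467. In the inflammatory list 2 of 21 were higher, and 3 without DMSO replicate 2. CCL3, a chemokine with a near-identical copy in the genome, had 69.0 and 86.2 normalised reads under Nutlin, against 11.8, 7.6 and 5.7 under DMSO (1.42 ± 0.29, limma adjusted p = 0.0139), and lost its call without either Nutlin library (adjusted p = 0.073 and 0.114). BIRC3, an inhibitor of apoptosis in NF-kB signalling, had 1469 and 2005 under Nutlin, against 744, 1109 and 1170 under DMSO (0.76 ± 0.18, adjusted p = 0.035), and lost its call without Nutlin replicate 2 (0.218) or DMSO replicate 1 (0.0832). CCL4 had 4 and 6 reads under Nutlin and 0, 1 and 0 under DMSO, near the limit of detection, and was the call gained without DMSO replicate 2 (difference 0.72, adjusted p = 0.0431, against 0.151 with it).

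AMOTL2 (0.46 ± 0.08) and ACTA2 (0.76 ± 0.16) were the 2 of 17 genes called in the YAP and TGF-beta list, which had 3 without DMSO replicate 2. AMOTL2 lost its call in 1 of 14 alternative fits and ACTA2 in 4, among them the fit without DMSO replicate 3 (limma adjusted p = 0.0532). ACTA2, smooth muscle actin, overlaps exons of FAS on the opposite strand, and since no source used here gives the strand of counting, its reads cannot be told apart from those of FAS. In the same way GENCODE exons on the opposite strand overlap MDM2 (CPM), GLS2 (SPRYD4), APAF1 (ANKS1B), TNFRSF10B (RHOBTB2), POLH (GTPBP2), XPC (LSM3), SULF2 (NCOA3), TYMS (ENOSF1), CCNE2 (INTS8) and CLCN2 (FAM131A). The interferon list (35 tested) and the list of ribosome biogenesis and MYC targets (32 tested) had no call by limma or voom with all libraries, with medians of -0.02 and -0.11 and an unadjusted p under 0.05 in 2 and 8 genes. Without DMSO replicate 2 the interferon list again had none, and NOLC1 (-0.29, limma adjusted p = 0.0383) and NOP2 (-0.30, adjusted p = 0.0486), genes of ribosome assembly in the nucleolus, were called lower in the other list (median -0.17). MYC had 1766 and 2029 normalised reads under Nutlin, against 2087, 2709 and 2703 under DMSO (-0.38 ± 0.12, limma adjusted p = 0.119), and it passed without DMSO replicate 1 (-0.50, adjusted p = 0.0242). Of 22 Polycomb genes EED was called higher (0.36 ± 0.09, adjusted p = 0.0401), and EZH2, the methyltransferase of that complex, differed by -0.02 ± 0.10. LSS, lanosterol synthase, was the 1 gene of 31 called lower in sterol and fatty acid synthesis (-0.41 ± 0.10, adjusted p = 0.0419). EED and LSS were not called without DMSO replicate 2, and each lost its call in 10 of 14 alternative fits.

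Genes lower under Nutlin were few and rested on narrower margins. SMAD6, an inhibitory SMAD of BMP signalling, had 35.2 and 102 normalised reads under Nutlin, against 168, 255 and 132 under DMSO (difference -1.06 ± 0.26, limma adjusted p = 0.0413). Leaving out each S-phase library in turn moved its difference between -1.51 (without Nutlin replicate 2) and -0.61 (without Nutlin replicate 1), and it lost its call in 7 of 14 alternative fits. PCDH18, a protocadherin, had 70.3 and 69.3 under Nutlin, against 133, 131 and 134 under DMSO (-0.63 ± 0.12, adjusted p = 0.00743), and was also called lower in non-released cells (-1.04) and asynchronous cells (-0.64). TFAP4, a transcription factor downstream of MYC that represses CDKN1A, had 162 and 134 under Nutlin, against 234, 306 and 263 under DMSO (-0.68 ± 0.13, adjusted p = 0.0102). The Nutlin libraries of SMAD6 differed widely, while those of PCDH18 were alike, as were its DMSO libraries.

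RUNX1-IT1, a transcript inside an intron of RUNX1, had 7.8 and 13.9 normalised reads under Nutlin, against 41.8, 85.9 and 23.6 under DMSO (difference -0.87 ± 0.22). CLCN2, a chloride channel, had 89.9 and 112 under Nutlin, against 189, 222 and 160 under DMSO (-0.68 ± 0.14), and NAT8L, which makes N-acetylaspartate, had 71.6 and 72.4 under Nutlin, against 114, 182 and 125 under DMSO (-0.65 ± 0.13). The pseudogene AACSP1 differed by -0.70, LPCAT4 and FAM18B2 by -0.68 each and GFOD1 by -0.67. DMSO replicate 2 was the highest DMSO library in all 10 of these genes but PCDH18, and SMAD6, FAM18B2 and GFOD1 lost their call without it. No gene of the 10 kept its call in every one of 14 alternative fits. AACSP1 and FAM18B2 have close copies, so their reads may be shared with them.

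GC content moved with these differences, more weakly without DMSO replicate 2, and length moved with them only when that library was included. Over 9853 genes with at least 100 normalised reads, the difference between Nutlin and DMSO had a Spearman correlation across genes of -0.31 with transcript GC content and -0.20 with length, and -0.14 and 0.04 without DMSO replicate 2. These correlations are across genes, which are not independent replicates. The difference between Nutlin replicate 2 and Nutlin replicate 1 had 0.59 with GC content. DMSO replicate 2 minus the mean of the other DMSO libraries had 0.34 with GC content and 0.38 with length. DMSO replicate 1 minus DMSO replicate 3 had -0.01 and 0.25. Genes called lower had a median GC content of 53.9% and genes called higher 46.8%, against 48.1% over all genes tested. The part of GC content in the lower calls was not tested.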

How the data were processed

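The authors deposited 1 table of variance-stabilised log2 values for 23368 genes in 15 libraries of 50-base single reads. Per the submitters' processing notes, the build was hg19 and the tools included HTSeq, TopHat 0.9, DESeq2 1.10.1 and CASAVA 1.8.2. No source used here gives the strand of counting. A spreadsheet had turned 29 gene names into dates. The labels print the Nutlin dose as 10 M with a character missing, taken here to be 10 µM.

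Reads were recovered by inverting the transformation, with 1 factor per library. At least 99.04% of values came out whole within 0.05 reads. Normalised reads are these reads divided by the size factor of the library. Depth ran from 6.05 to 23.38 M reads. A gene with 0 reads can lie at up to 3 reads, a limit that covers counting error only.

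Differences were tested on the deposited log2 values by limma 3.58.1 (R 4.3.3), fitting group means over 14 libraries, with eBayes, a mean-variance trend and 8 residual degrees of freedom. A gene was tested if at least 2 libraries exceeded the lowest value, 4.859, by 1 unit. The library labelled DMSO asynchronous replicate 3 was left out because it stands apart from its group, with high epithelial markers and high p53 targets. Its median over epithelial markers was 10.54, against 6.63 and 6.48 in the other DMSO asynchronous libraries. Over the arrest list it was 10.79, against 10.37 and 10.29. The choice was made with these traits known, and it lowers the spread of p53 targets, the genes looked at most closely here. The code was tested on simulated data. Pairing by replicate number was checked. Deviations from the group means correlated in all 6 same-numbered pairs (r from 0.22 to 0.61, 0.46 and 0.44 in S-phase). Nutlin S-phase replicate 1 with DMSO replicate 3 (0.34) and Nutlin asynchronous replicate 3 with DMSO replicate 2 (0.52) also correlated positively. The remaining other-numbered pairs had negative values. The labels do not say what a number shares. With 2 libraries in a group their deviations mirror each other, so the values of these pairs are not independent.

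Genes were named by rule: the 15 largest positive and 10 largest negative called differences with groups apart and at least 20 normalised reads, up to 6 called members per list, and a fixed set. The comparison, members, lists and the choice of fit were set with earlier results of these data known. Transcript GC content and length came from GENCODE v29 (88.6% of tested genes matched), and promoters from RefSeq on GRCh38.p14. A few genes are not reported here. Frizzled genes and the printed p53 sites were chosen after values had been seen.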

Additional observations from a re-analysis of the deposited data

How the results depend on the processing

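Counts depended on which libraries set the spread. With all 15 libraries there were 286 calls, 263 higher and 23 lower, and with S-phase libraries alone 101, all higher and 0 lower (372 without DMSO replicate 2). Leaving out each S-phase library in turn gave 214 to 564 calls, 185 to 482 higher and 7 to 85 lower. Lower genes numbered 16 with voom on recovered reads and 133 with the replicate block, which called 583 genes in all and changed no other call of a named gene than E2F2 and PLK1. Starting without DMSO replicate 2 (564 calls), all 15 libraries otherwise gave 257, S-phase libraries alone 372, library weights 324, and leaving out a further S-phase library 232 to 501. Both differences of responses had 0 calls in every alternative run. Of 47 named genes called higher, 29 kept the call in all 14 alternatives and 40 in all but those with 15 libraries or with S-phase libraries alone. None of 11 called lower did so, and no called gene changed sign. Signs turned only in named genes without a call. Leaving out each S-phase library in turn, differences ranged from -0.28 to 0.13 in MCM6, -0.20 to 0.10 in CCNB1, -0.01 to 0.86 in EGR1, -0.06 to 0.02 in EZH2, -0.06 to 0.39 in TYMS, -0.09 to 0.05 in RRM2 and -0.08 to 0.08 in WEE1. The sign also turned with the replicate block in CCNB1 (0.03) and WEE1 (-0.01), with equal medians in RRM2 (0.01) and with library weights in WEE1 (-0.02). The causes were not tested. With 2 Nutlin libraries, and a DMSO library of 6.05 M reads, small differences may go unseen.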

Other observations

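Receptors of the Frizzled family, which bind WNT ligands, were looked at after 3 of them had been seen among the lower genes. Of 9 tested members FZD2, FZD4 and FZD7 were called lower in S-phase cells, where 0.386% of all genes tested were. FZD2 had 242 and 276 normalised reads under Nutlin, against 418, 435 and 414 under DMSO (difference -0.61 ± 0.14, limma adjusted p = 0.0304), and it was also called lower in non-released cells (-0.74, adjusted p = 0.0252) and asynchronous cells (-0.66, adjusted p = 0.0176). FZD4 had 216 and 223 under Nutlin, against 322, 394 and 306 under DMSO (-0.53 ± 0.12, adjusted p = 0.0318). FZD7 had 374 and 382 under Nutlin, against 479, 596 and 508 under DMSO (-0.43 ± 0.11, adjusted p = 0.0468) and was not called without DMSO replicate 2 (adjusted p = 0.078). In these 3 genes the groups did not overlap, but that held for every called gene and so adds nothing to the calls. In FZD3, which was not called, both Nutlin libraries also lay below all DMSO libraries. FZD6 lay the other way without passing (0.36 ± 0.11, adjusted p = 0.127), and FZD1, FZD3, FZD5, FZD8 and FZD9 did not pass, with differences from -0.11 to 0.11.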
